A study of Mus musculus with 26 samples.

Results

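Mouse gastruloids of 2 edited lines were compared at 120h after aggregation: a line in which part of an inserted cassette of CBS elements was left, and a line from which the whole cassette had been taken out again. Both lines carry the HoxB Del/Del(i9-13) allele and were grown for the same 120h, and both had the insertion Ins(CBS5-10) as their starting point. In the line called InsDel7to10 here it was followed by Del(CBS7-10), which leaves part of the cassette, and in the line called InsDel5to10 by Del(CBS5-10), which empties the site. CBS is the field's usual abbreviation of a binding site of CTCF, and the labels do not spell out it or i9-13. The compared libraries are the 2 replicates of each line that carry the library label ISML_third, 4 of the 26 libraries of the series. The labels do not say whether a line is 1 clone, how many gastruloids went into a library or whether replicates came from separate cultures. The p-values rest on a spread between replicate libraries that 1 fit shared over all 26 libraries, and that spread may be technical. Of all genes, the autosomal ones outside a stretch of chromosome 3 that starts at 91 Mb and spans 28 Mb are described, and the X, the Y and that stretch are set apart.

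Gastruloids are cultured aggregates of mouse stem cells that lengthen along an axis and lay down the tissues of the trunk and tail without an embryo. A tailbud at the posterior end feeds presomitic mesoderm, in which a Notch- and Wnt-driven clock cuts off somites, and somites then give dermomyotome, sclerotome (the source of vertebrae and ribs) and tendon progenitors. Endoderm forms a small epithelial compartment in the same aggregates. CTCF bound to DNA can insulate genes from enhancers, and Hoxb13, the last gene of the HoxB cluster, is the gene whose insulation the series title names.

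The 4 libraries held 18746411 and 21216285 counts in InsDel7to10 and 20081453 and 23960525 counts in InsDel5to10, against 18746411 to 37716547 over the 26 libraries. A gene at 0 counts in one of these libraries may lie up to 3 counts, or 0.129 to 0.165 CPM (counts scaled to library size), a limit that covers counting error only. The labelled tissue was checked on markers: the tailbud gene T had 46.1 and 36.6 CPM in InsDel7to10 and 54.9 and 73.0 CPM in InsDel5to10, and the somite gene Meox1 had 696 and 770 CPM in InsDel7to10 and 439 and 482 CPM in InsDel5to10. The replicates of a line were not alike. A chi-square of their counts over genes came to 38.4 per degree of freedom in InsDel7to10 and 18.4 in InsDel5to10, against 14.7 in InvClone2, the second clone of Ins(CBS5-10):Inv(CBS5-10), whose 2 libraries carry the same library label and stage. Replicate 1 of InsDel7to10 stood above replicate 2 in neural and presomitic genes, and replicate 2 of InsDel5to10 stood above replicate 1 in endodermal, epithelial and endothelial genes. The values of these libraries are given beside the results they touch. Mitochondrially encoded genes took 0.716% and 0.897% of counts in InsDel7to10, and 1.33% and 0.727% in InsDel5to10.

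Of 17769 genes that passed the filter on low counts, 45 differed between the lines at an adjusted p under 0.05 in edgeR's quasi-likelihood test with Benjamini-Hochberg adjustment (0.253%). Of the 16852 autosomal genes outside the chromosome 3 stretch, 13 did (0.0771%), 8 higher in InsDel7to10 (0.0475%) and 5 lower (0.0297%). Beyond them, 15 of 277 genes in the chromosome 3 stretch were higher in InsDel7to10, with a median log2 fold change of 0.50 over the stretch, and 13 of 613 X-linked and 4 of 7 Y-linked genes were lower. The Y-linked Ddx3y was at 0 counts in both InsDel7to10 libraries, which allows up to 0.165 and 0.143 CPM, against 78.8 and 71.1 CPM in InsDel5to10. The part of these chromosome-wide differences in the autosomal ones was not tested. The median log2 fold change over all genes tested was -0.00050.

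The number of autosomal genes called depended on single libraries. In edgeR it was 3 without replicate 1 of InsDel7to10, 863 without its replicate 2, 2 without replicate 2 of InsDel5to10, and 0 without replicate 1 of InsDel5to10, where 1606 of these genes still had an unadjusted p under 0.05. DESeq2 called 198 and limma-voom 9 on all libraries. The direction of each of the 13 genes was the same in all 17 alternative settings, and Heyl passed the threshold in 12 of them, the others in 5 to 9. The direction could hardly have changed, since every setting compares the same libraries or all but 1 of them, and these did not overlap for the 13 genes. It is therefore no separate support for the calls. The 13 genes are described one by one below, in the order of what their products do.

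**Figure D1:**
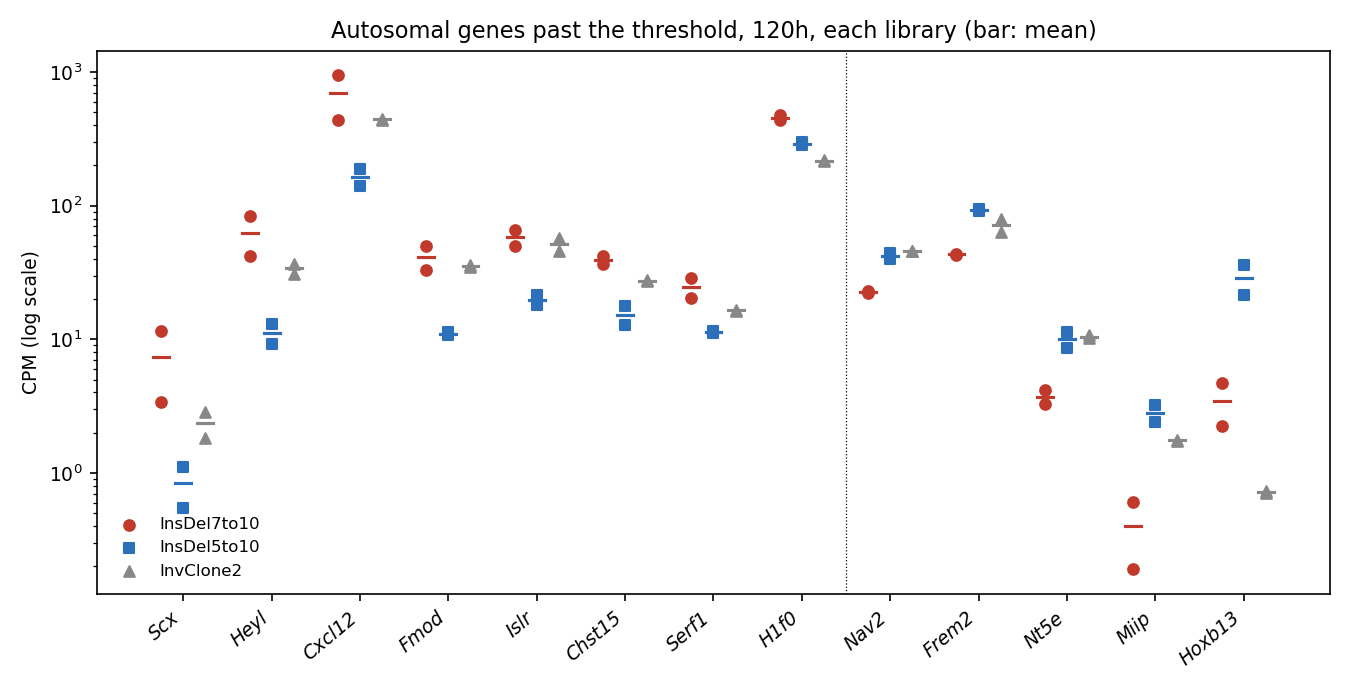
CPM of the 13 autosomal genes past the threshold, on a log axis, in each library of InsDel7to10, InsDel5to10 and InvClone2 at 120h, with a bar at the mean. The 8 genes left of the dotted line were higher and the 5 to its right lower in InsDel7to10, and the points of InsDel7to10 and InsDel5to10 do not overlap for any of the 13.

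Hoxb13, a homeodomain transcription factor that restrains the extension of the tail, was lower in InsDel7to10. It lies on chromosome 11 from 96194316 to 96197447 (mm10). It had 4.72 and 2.24 CPM in InsDel7to10 and 35.7 and 21.4 CPM in InsDel5to10. All reads of InsDel7to10 came to 86 and 47 counts, and both libraries lay far under both of InsDel5to10. The log2 fold change was -3.04 ± 0.48 (SE; adjusted p = 0.0246, edgeR). InvClone2 had less than either line, 0.732 and 0.706 CPM, while the 14 other libraries at 120h ran from 0.259 to 87.0 CPM with a median of 0.876. The difference also stood past the threshold without replicate 2 of InsDel5to10, with a log2 fold change of -3.37 (adjusted p = 0.0460, within 3.97e-19 to 0.442 over the settings), and not without replicate 1 of InsDel5to10 or replicate 1 of InsDel7to10.

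None of the other 9 HoxB genes passed the test in edgeR, DESeq2 or limma-voom, and none had an unadjusted p under 0.05 in edgeR, a limit that 6.09% of all genes tested passed as higher and 4.57% as lower. Hoxb6, from the middle of the cluster, had 8.07 and 4.81 CPM in InsDel7to10 and 4.15 and 4.54 CPM in InsDel5to10 and was the only one of the 9 whose libraries did not overlap. Hoxb9, the most posterior of the 9, had 190 and 243 CPM in InsDel7to10 and 333 and 177 CPM in InsDel5to10. Hoxb2, an anterior member, was 0.70 ± 0.35 higher on the log2 scale (SE; adjusted p = 0.516), with 33.0 and 11.7 CPM in InsDel7to10 and 15.5 and 12.1 CPM in InsDel5to10, so its replicates in InsDel7to10 spread more widely than the lines differed. The log2 fold changes of the 9 ran from -0.23 to 0.70. Among 11 tested posterior Hox genes of the other clusters, paralog groups 8 to 13, none was called in edgeR, DESeq2 or limma-voom and 1 had an unadjusted p under 0.05. Of the 11, 5 were higher in InsDel7to10 without overlap (45.5%, against 14.9% of all genes tested), none was lower without overlap, and the median log2 fold change was 1.03. It was 0.52 without replicate 2 of InsDel7to10. Hoxd9 had 43.4 and 33.4 CPM in InsDel7to10 and 22.7 and 14.9 CPM in InsDel5to10 (log2 fold change 1.03 ± 0.44, SE, adjusted p = 0.434).

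Heyl, a repressor of the Hey family that Notch signalling switches on, was higher in InsDel7to10. The gene lies on chromosome 4 from 123233556 to 123249875. It had 42.0 and 83.6 CPM in InsDel7to10 and 9.16 and 13.0 CPM in InsDel5to10, a log2 fold change of 2.5 ± 0.35 (SE; adjusted p = 0.0121, edgeR). The lower InsDel7to10 library was still above 3 times the higher InsDel5to10 library. InsDel5to10 lay under the whole range of the other 14 libraries at 120h, 29.4 to 57.9 CPM, and InvClone2, with 36.9 and 31.0 CPM, lay between the lines. The call ended without either replicate of InsDel5to10 (adjusted p 0.119 and 0.0930, within 1.03e-26 to 0.442 over the settings).

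Cxcl12, a chemokine that guides migrating cells through its receptor Cxcr4, was higher in InsDel7to10, with 439 and 945 CPM against 141 and 189 CPM in InsDel5to10. The gene lies on chromosome 6 from 117168535 to 117181367. Its log2 fold change was 2.07 ± 0.35 (SE; adjusted p = 0.0440, edgeR). Per length it and H1f0 had the highest levels of the 13, and Cxcl12 had 105 and 224 FPKM, a level scaled to transcript length and depth, in InsDel7to10 and 33.0 and 43.9 FPKM in InsDel5to10 in the authors' table. As for Heyl, replicate 2 of InsDel7to10 was above replicate 1, and InsDel5to10 lay under the range of the other libraries at 120h (297 to 626 CPM). Neither of its receptors was called. Cxcr4 had 40.1 and 48.2 CPM in InsDel7to10 and 47.9 and 44.5 CPM in InsDel5to10, with overlap, and the scavenging receptor Ackr3 had 9.0 and 10.8 CPM in InsDel7to10 and 12.6 and 10.9 CPM in InsDel5to10.

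Scx, Fmod and Islr, genes of tendon and connective tissue mesenchyme, were higher in InsDel7to10. Scx encodes the bHLH factor that marks tendon progenitors beside the somite, and it lies on chromosome 15 from 76457520 to 76459449. It had 11.5 and 3.38 CPM in InsDel7to10 and 0.550 and 1.11 CPM in InsDel5to10, that is 209 and 71 reads against 11 and 26 (log2 fold change 3.13 ± 0.57, SE, adjusted p = 0.0431). The libraries did not overlap, but replicate 1 of InsDel7to10 carried most of the difference. Fmod encodes fibromodulin, a small leucine-rich proteoglycan that binds collagen in tendon, on chromosome 1 from 134037254 to 134048277. It had 32.9 and 49.6 CPM in InsDel7to10 and 10.8 and 11.3 CPM in InsDel5to10 (log2 fold change 1.90 ± 0.30, adjusted p = 0.0216). Islr, a leucine-rich repeat protein of mesenchymal stromal cells on chromosome 9 from 58156268 to 58204306, had 65.8 and 50.1 CPM in InsDel7to10 and 21.4 and 18.1 CPM in InsDel5to10 (log2 fold change 1.55 ± 0.23, adjusted p = 0.0121). For both genes the lines did not overlap, and InsDel5to10 was under the range of the other 14 libraries at 120h.

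The sequence before the transcription start is shown for Fmod, Islr and Cxcl12, 3 of the mesenchymal genes that were higher together, because bHLH factors such as Scx bind E-boxes and the Notch effector RBPJ binds a core of TGGGAA. The windows are the 250 bases upstream of the RefSeq start on GRCm38.p6, 5' to 3' on the gene's own strand, at chr1:134037004-134037253 (plus strand), chr9:58158555-58158804 (minus strand) and chr6:117168285-117168534 (plus strand). Capitals mark E-boxes (CANNTG, the same on both strands) in the first 2 and the RBPJ core (TGGGAA, or TTCCCA on the other strand) in the third.
Fmod: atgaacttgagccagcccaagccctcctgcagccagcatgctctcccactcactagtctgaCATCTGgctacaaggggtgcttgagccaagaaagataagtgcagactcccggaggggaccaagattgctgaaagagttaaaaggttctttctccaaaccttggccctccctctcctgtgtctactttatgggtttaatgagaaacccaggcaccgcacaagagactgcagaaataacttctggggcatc
Islr: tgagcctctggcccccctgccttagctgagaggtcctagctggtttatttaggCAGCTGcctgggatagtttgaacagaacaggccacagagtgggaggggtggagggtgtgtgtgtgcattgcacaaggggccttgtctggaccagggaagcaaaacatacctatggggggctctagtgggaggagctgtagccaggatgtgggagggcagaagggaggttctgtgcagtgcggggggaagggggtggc
Cxcl12: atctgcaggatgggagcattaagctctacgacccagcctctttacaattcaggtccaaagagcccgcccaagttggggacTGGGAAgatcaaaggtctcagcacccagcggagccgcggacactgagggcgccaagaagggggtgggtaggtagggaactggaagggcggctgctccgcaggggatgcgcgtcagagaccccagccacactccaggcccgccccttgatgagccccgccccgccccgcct
Fmod and Islr each held 1 E-box, and Cxcl12 held no E-box and 1 RBPJ core. Of the 13 genes, 10 matched the RefSeq table, with 13 windows between them. An E-box was in 7 of the 13 windows, against 66.2% of all 32851 mouse promoter windows of the same length. The narrower form CAGATG or CATCTG was in 3 of the 13 windows, against 14.4% of all windows, and the RBPJ core in 1, against 21.6%. Hoxb13, Heyl and Scx are not among the matched genes. A match of letters is not a bound site.

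Chst15 and Serf1 were also higher in InsDel7to10. Chst15, a sulfotransferase that acts on chondroitin sulfate chains of the extracellular matrix, had 36.6 and 42.3 CPM in InsDel7to10 and 12.7 and 17.6 CPM in InsDel5to10 (chromosome 7, 132235780 to 132317228; log2 fold change 1.38 ± 0.24, adjusted p = 0.0338). InsDel7to10 was above and InsDel5to10 under all 14 other libraries at 120h (19.3 to 32.9 CPM). Serf1 had 28.9 and 20.5 CPM in InsDel7to10 and 11.6 and 11.1 CPM in InsDel5to10 (chromosome 13, 100108012 to 100114571; log2 fold change 1.12 ± 0.19, adjusted p = 0.0338). H1f0, the replication-independent linker histone that accumulates in differentiating cells, showed the smallest of the 13 fold changes. It had 474 and 435 CPM in InsDel7to10 and 299 and 283 CPM in InsDel5to10 (chromosome 15, 79028450 to 79030504; log2 fold change 0.64 ± 0.12, adjusted p = 0.0474).

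The 4 genes lower in InsDel7to10 besides Hoxb13 were Frem2, Nav2, Nt5e and Miip. Frem2, which encodes a basement membrane protein that anchors embryonic epithelia, had 43.6 and 42.7 CPM in InsDel7to10 and 91.1 and 94.0 CPM in InsDel5to10 (chromosome 3, 53513938 to 53657355, outside the stretch that was set apart; log2 fold change -1.10 ± 0.16, adjusted p = 0.0121). Here InsDel5to10 was above all 14 other libraries at 120h, which ran from 36.9 to 79.4 CPM, and InsDel7to10 was within them. Nav2, a cytoskeletal protein of extending axons, had 22.1 and 23.1 CPM in InsDel7to10 and 44.5 and 39.8 CPM in InsDel5to10 (chromosome 7, 48959097 to 49610090; log2 fold change -0.90 ± 0.17, adjusted p = 0.0472). Nt5e, the surface enzyme CD73 that makes adenosine from AMP, had 3.29 and 4.15 CPM in InsDel7to10 and 8.66 and 11.4 CPM in InsDel5to10 (chromosome 9, 88327197 to 88372092; log2 fold change -1.43 ± 0.25, adjusted p = 0.0427). For Nav2 and Nt5e it was InsDel7to10 that lay under the other 14 libraries at 120h. Miip rested on few reads, 11 and 4 in InsDel7to10 and 48 and 75 in InsDel5to10 (0.604 and 0.191 CPM against 2.40 and 3.22 CPM; chromosome 4, 147860778 to 147868816; log2 fold change -2.84 ± 0.53, adjusted p = 0.0474).

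Set beside the 14 other libraries at 120h, the difference lay on the side of InsDel5to10 for most of the genes that were higher in InsDel7to10. InsDel5to10 was under the whole range of those libraries for 6 of the 13 genes (Heyl, Islr, Fmod, Serf1, Chst15 and Cxcl12), above it for Frem2 and inside or partly inside it for 6. InsDel7to10 was above the range for Chst15 and H1f0, under it for Nt5e, Nav2 and Miip, and inside or partly inside it for 8. Both libraries of InvClone2, prepared under the same library label, lay within the span of the 4 compared libraries for 10 of the 13. That span takes in the values of each line, so not all 10 lay between the lines. For Fmod InvClone2 (34.9 and 35.9 CPM) lay inside InsDel7to10, and for Nt5e (10.15 and 10.7 CPM) inside InsDel5to10. For Islr and Cxcl12 it lay partly inside InsDel7to10. These positions are descriptions, since the 14 libraries come from several lines and library labels.

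Endodermal and epithelial genes were the tissue lists with the largest median difference between the lines, although no member passed the edgeR test over all genes. Fewer cells of a type and less RNA per cell cannot be told apart in these bulk libraries. The 25 tested genes of definitive endoderm and gut epithelium summed to 143 and 103 CPM in InsDel7to10 and to 237 and 685 CPM in InsDel5to10. Both InsDel7to10 libraries were under the other 14 libraries at 120h (150 to 652 CPM), and replicate 2 of InsDel5to10 was above all of them. The median log2 fold change of the list was -2.43, and 15 of 25 members were lower in InsDel7to10 without overlap (60%), against 17% of all genes tested. In edgeR 14 members had an unadjusted p under 0.05, against 4.57% of all genes tested in that direction. DESeq2 called 6 of the 25 lower, against 115 of all 17769 genes tested, and limma-voom none. Without replicate 2 of InsDel5to10 the median was -1.21, without replicate 1 of InsDel7to10 it was -3.57, and on log2(FPKM + 1) it was -1.16. Spink1, whose fitted value is not a fold, was at 0 counts in InsDel7to10 and had 0.050 and 3.99 CPM in InsDel5to10.

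Within the endoderm list the libraries of the lines were separate for genes of the epithelial surface and keratins, and overlapped for several endoderm transcription factors. Epcam, the adhesion molecule of epithelia, had 8.5 and 4.62 CPM in InsDel7to10 and 16.3 and 38.8 CPM in InsDel5to10 (log2 fold change -2.08 ± 0.53, adjusted p = 0.182). Cdh1, the epithelial cadherin, had 12 and 6.05 CPM in InsDel7to10 and 20.8 and 76.7 CPM in InsDel5to10. Trh, the precursor of thyrotropin-releasing hormone, had 14.3 and 7.72 CPM in InsDel7to10 and 30.6 and 128 CPM in InsDel5to10. For these 3 genes the lines did not overlap, and in InsDel5to10 replicate 2 was at least 2 times replicate 1. Sox17 and Foxa1, transcription factors of endoderm, overlapped between the lines, with 3.90 and 0.524 CPM for Sox17 in InsDel7to10 and 3.35 and 8.53 CPM in InsDel5to10. Foxa1 had 2.14 and 0.143 CPM in InsDel7to10 and 1.85 and 8.32 CPM in InsDel5to10.

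The epithelial junction list, which shares 9 genes with the endoderm list, gave 218 and 210 CPM in InsDel7to10 and 342 and 701 CPM in InsDel5to10. Of its 24 tested members 19 were lower in InsDel7to10 without overlap (79.2%) and 1 was higher, against 17% and 14.9% of all genes tested. None was called in edgeR, where 17 had an unadjusted p under 0.05, all lower, against 4.57% of all genes tested in that direction. DESeq2 called 7 of the 24 lower, against 115 of all 17769 genes tested, and limma-voom none. Its median log2 fold change was -2.50, -1.25 without replicate 2 of InsDel5to10 and -0.84 on log2(FPKM + 1). Dsp, a desmosome protein, had 52.3 and 70.6 CPM in InsDel7to10 and 110 and 221 CPM in InsDel5to10 (log2 fold change -1.43 ± 0.34, adjusted p = 0.152). Spint1, an inhibitor of membrane-bound proteases of epithelia, had 7.68 and 6.29 CPM in InsDel7to10 and 14.7 and 16.3 CPM in InsDel5to10. Grhl2 and Esrp1 are a transcription factor and a splicing factor of epithelia. Grhl2 had 0.713 and 0.0953 CPM in InsDel7to10 and 1.25 and 5.75 CPM in InsDel5to10, and Esrp1 had 2.03 and 0.381 CPM in InsDel7to10 and 4.35 and 20.1 CPM in InsDel5to10.

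**Figure D2:**
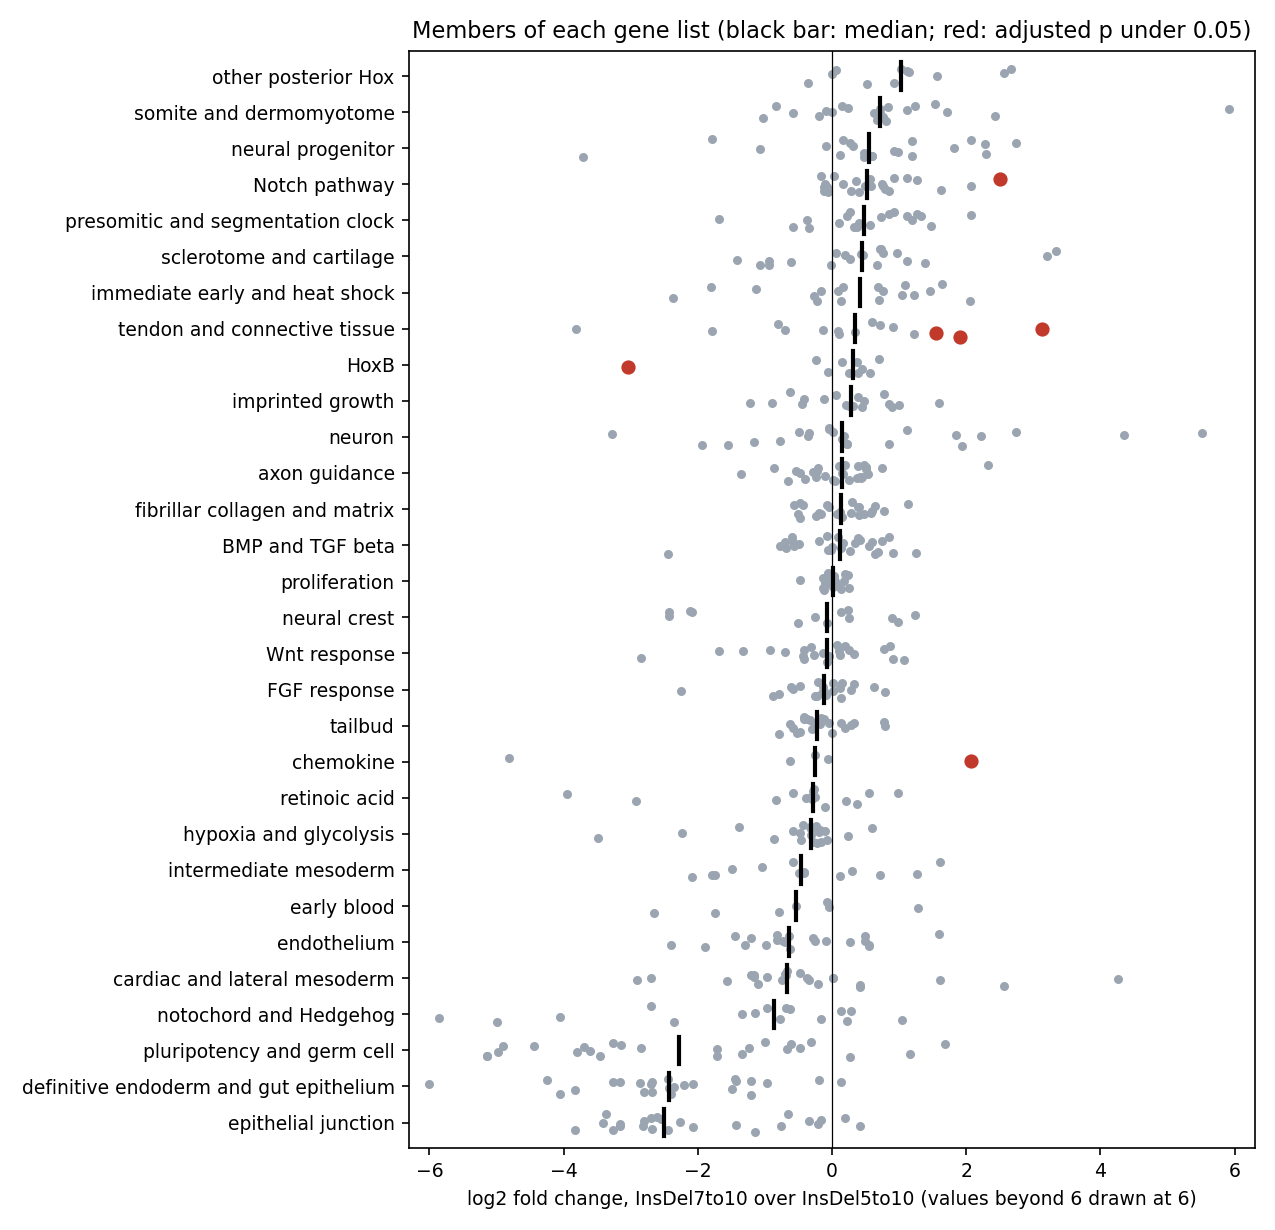
Log2 fold change, InsDel7to10 over InsDel5to10, of each tested member of 30 gene lists, sorted by the list's median (black bar), with members past an adjusted p of 0.05 in red. The epithelial junction and endoderm lists have medians of -2.50 and -2.43, the somite list 0.71, and the red points are Heyl, Scx, Fmod, Islr, Cxcl12 and Hoxb13.

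Of the notochord and Hedgehog genes none was called in edgeR, DESeq2 or limma-voom, and 3 had an unadjusted p under 0.05 in edgeR. Their sum was 745 and 672 CPM in InsDel7to10 and 762 and 917 CPM in InsDel5to10, the median log2 fold change -0.87, and 9 of 16 were lower and 1 higher without overlap, against 17% and 14.9% of all genes tested. Ptch1, the Hedgehog receptor that the pathway itself induces, had 77.6 and 65.4 CPM in InsDel7to10 and 118 and 242 CPM in InsDel5to10 (log2 fold change -1.33 ± 0.51, adjusted p = 0.391). The ligand Shh was near the detection limit in InsDel7to10, with 0.165 CPM and 0 counts (which allows up to 0.143 CPM), against 0.450 and 2.23 CPM in InsDel5to10. Without replicate 2 of InsDel5to10 the median of the list was -0.46, and -0.43 without replicate 2 of InsDel7to10. The median of the pluripotency and germ cell list was -2.28, -1.53 with members at 0 counts in one line set to the bound of 3 counts, and 0.19 without replicate 2 of InsDel5to10. DESeq2 called 3 of its 24 members lower, against 115 of all 17769 genes tested, and edgeR and limma-voom none. Kit, a receptor tyrosine kinase of germ cells, had 18.7 and 16.4 CPM in InsDel7to10 and 37.4 and 45.4 CPM in InsDel5to10 (log2 fold change -1.24 ± 0.25, adjusted p = 0.0657).

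Somite genes had higher values in InsDel7to10. The 21 tested genes of somite and dermomyotome summed to 2257 and 1810 CPM in InsDel7to10 and to 1184 and 1521 CPM in InsDel5to10. The lines did not overlap, and replicate 1 of InsDel7to10 was above the other 14 libraries at 120h (1102 to 1821 CPM). The median log2 fold change was 0.71, and 11 of 21 members were higher in InsDel7to10 without overlap, against 14.9% of all genes tested. None was called in edgeR or limma-voom, and DESeq2 called 6 higher, against 175 of all 17769 genes tested. In edgeR 11 had an unadjusted p under 0.05, all higher, against 6.09% of all genes tested in that direction. The median was 0.45 without replicate 1 of InsDel7to10 and 0.96 without replicate 2 of InsDel5to10. Meox1, a homeobox factor of early somites, had 696 and 770 CPM in InsDel7to10 and 439 and 482 CPM in InsDel5to10 (log2 fold change 0.67 ± 0.17, adjusted p = 0.148). Pax7, of dermomyotome and dorsal neural tube, had 38.7 and 41.5 CPM in InsDel7to10 and 17.6 and 6.86 CPM in InsDel5to10 (log2 fold change 1.72 ± 0.41, adjusted p = 0.140). Both genes had tight replicates in InsDel7to10. Uncx, a factor of the posterior part of each somite, did not, with 106 and 23.4 CPM in InsDel7to10 and 8.06 and 15.8 CPM in InsDel5to10. Aldh1a2, which makes retinoic acid in somites, ran against the list, with 116 and 65.7 CPM in InsDel7to10 and 132 and 192 CPM in InsDel5to10.

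Sclerotome genes summed to 693 and 410 CPM in InsDel7to10 and 278 and 331 CPM in InsDel5to10, with 7 of 20 members higher and 1 lower without overlap, against 14.9% and 17% of all genes tested. None was called in edgeR or limma-voom, and DESeq2 called 4 higher, against 175 of all 17769 genes tested. In edgeR 5 had an unadjusted p under 0.05 in the higher direction and 1 in the lower, against 6.09% and 4.57% of all genes tested. Pax1, a paired-box factor of the sclerotome, had 35.2 and 37.8 CPM in InsDel7to10 and 2.95 and 4.24 CPM in InsDel5to10, with tight replicates in both lines, and InsDel5to10 was under the other 14 libraries at 120h (12.3 to 88.7 CPM). Its log2 fold change was 3.33 ± 0.92 (SE; adjusted p = 0.228 with the spread shared over all 26 libraries, 0.0279 in a fit of the 4 compared libraries alone, where it was the one autosomal gene called, and 4.87e-49 to 0.641 over the settings). Col11a1, a fibrillar collagen of cartilage that lies in the chromosome 3 stretch set apart, had 25.8 and 29.6 CPM in InsDel7to10 and 14.5 and 13.8 CPM in InsDel5to10 (log2 fold change 0.97 ± 0.19, adjusted p = 0.0558). Nkx3-2, a homeobox factor that acts with Pax1 in the sclerotome, had 5.98 and 1.48 CPM in InsDel7to10 and 0.50 and 0.300 CPM in InsDel5to10. Pax9, the paralog of Pax1, overlapped, with 3.79 and 3.81 CPM in InsDel7to10 and 4.10 and 3.60 CPM in InsDel5to10. The median of the list was 0.45, and it was 0.05 without replicate 1 of InsDel5to10 and 0.07 without replicate 1 of InsDel7to10.

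The tendon and connective tissue list held 3 of the 13 called genes, Scx, Fmod and Islr, and was drawn up with those calls known. Of its 15 tested members 8 were higher in InsDel7to10 without overlap, against 14.9% of all genes tested, and none was lower. The median log2 fold change was 0.35. It was 0.60 without the 2 members at 3 counts or fewer in both lines, 1.23 over the 7 members of at least 1 CPM on average, and 0.83 without replicate 1 of InsDel5to10. Tnc, the matrix protein tenascin C, had 9.0 and 11.1 CPM in InsDel7to10 and 7.16 and 8.66 CPM in InsDel5to10 (log2 fold change 0.35). Tendon matrix genes of later stages were close to the detection limit in both lines, among them Dcn, with at most 0.191 CPM. The fibrillar collagen and matrix list had a median of 0.13, with no member called in edgeR, DESeq2 or limma-voom and 2 at an unadjusted p under 0.05.

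Presomitic and Notch genes had their highest sums in replicate 1 of InsDel7to10. The presomitic and segmentation clock list summed to 1444 and 1003 CPM in InsDel7to10 and to 894 and 836 CPM in InsDel5to10, with a median log2 fold change of 0.48, and 0.0063 without replicate 1 of InsDel7to10. Of its 20 members none was called in edgeR or limma-voom, and DESeq2 called 1 higher, against 175 of all 17769 genes tested. In edgeR 5 had an unadjusted p under 0.05 in the higher direction and 1 in the lower, against 6.09% and 4.57% of all genes tested. Mesp2, which sets the boundary of the next somite, was high in both InsDel7to10 libraries, with 26.3 and 19.6 CPM, against 9.16 and 7.29 CPM in InsDel5to10 (log2 fold change 1.48 ± 0.38, adjusted p = 0.159). Both values of InsDel7to10 were above the other 14 libraries at 120h (5.33 to 13.3 CPM). Ripply2, a partner of the same boundary circuit, had 6.58 and 4.10 CPM in InsDel7to10 and 2.80 and 1.46 CPM in InsDel5to10. The early presomitic factors Tbx6 and Msgn1 overlapped: Tbx6 had 58.5 and 22.2 CPM in InsDel7to10 and 29.1 and 35.2 CPM in InsDel5to10.

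The Notch list, which shares 7 genes with the presomitic list, held 1 called gene, Heyl, among 24, and 10 members were higher in InsDel7to10 without overlap (41.7%, against 14.9% of all genes tested) and none lower. It summed to 2627 and 1875 CPM in InsDel7to10 and to 1441 and 1507 CPM in InsDel5to10. The receptor Notch2 had 341 and 336 CPM in InsDel7to10 and 216 and 235 CPM in InsDel5to10 (log2 fold change 0.59 ± 0.14, adjusted p = 0.138). The target Hey1 had 76.3 and 71.2 CPM in InsDel7to10 and 34.8 and 52.8 CPM in InsDel5to10. Both genes stood above the other 14 libraries at 120h in InsDel7to10. Both lie on chromosome 3, Notch2 inside and Hey1 outside the stretch that was set apart. Hes5, a target best known from neural progenitors, rested on replicate 1 of InsDel7to10, with 37.7 and 4.86 CPM, against 4.80 and 5.27 CPM in InsDel5to10. The ligand Jag1 and the nuclear effector Rbpj overlapped between the lines. The median of the Notch list was 0.53, and 0.025 without replicate 1 of InsDel7to10.

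**Figure D3:**
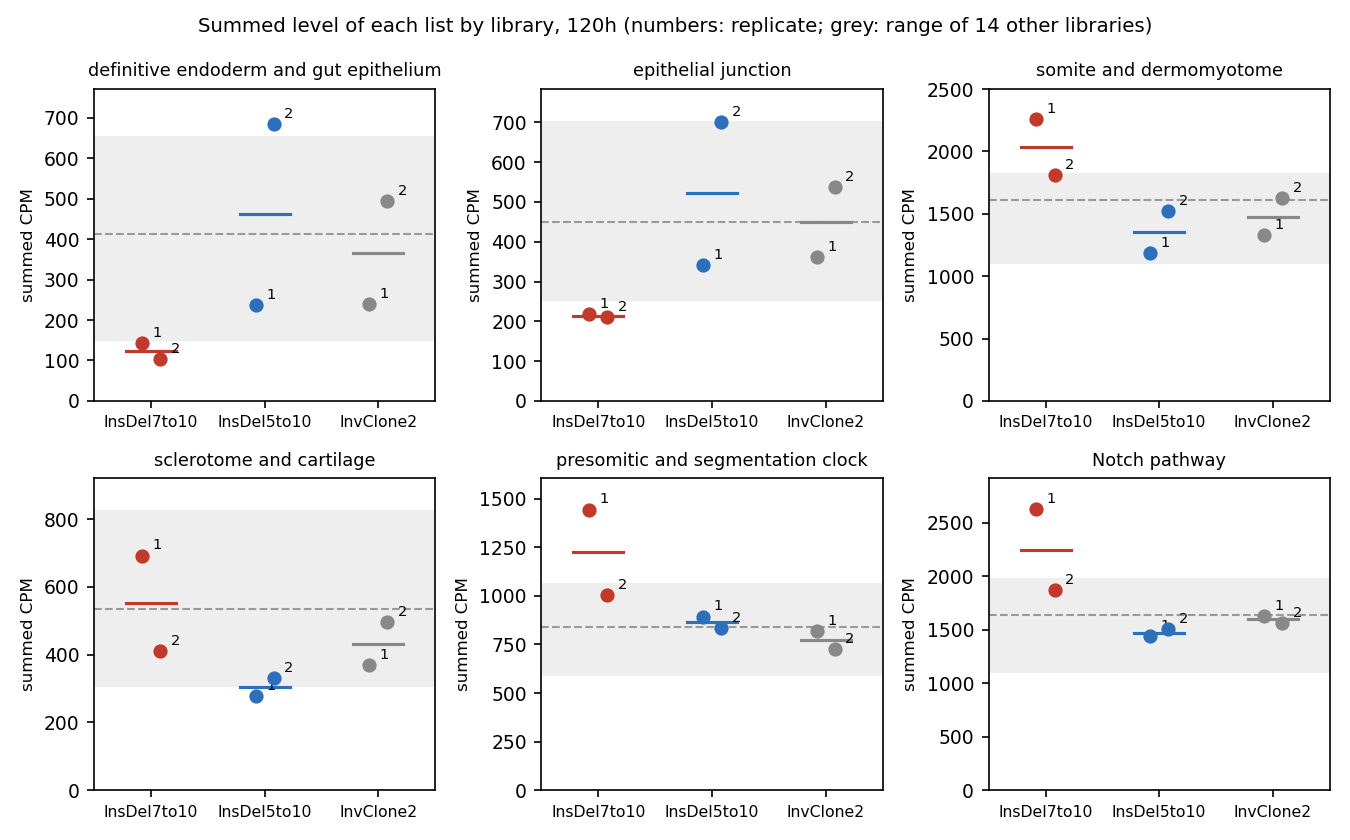
Summed CPM of 6 gene lists in each library of InsDel7to10, InsDel5to10 and InvClone2 at 120h, numbered by replicate, with a bar at the mean and the range (grey) and median (dashed) of the 14 other 120h libraries. InsDel7to10 lies under the grey range in the endoderm list (143 and 103 CPM), and its replicate 1 lies above it in the somite, presomitic and Notch lists.

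The tailbud list had 8 of 22 members lower in InsDel7to10 without overlap, against 17% of all genes tested, 1 higher without overlap, and a median log2 fold change of -0.22. None was called in edgeR, DESeq2 or limma-voom, and 2 had an unadjusted p under 0.05. Lin28b, an RNA-binding protein that regulates developmental timing, had 128 and 157 CPM in InsDel7to10 and 223 and 186 CPM in InsDel5to10 (log2 fold change -0.52 ± 0.17, adjusted p = 0.304). Its paralog Lin28a had 473 and 534 CPM in InsDel7to10 and 725 and 681 CPM in InsDel5to10. Neural progenitor genes had sums of 591 and 244 CPM in InsDel7to10 and 331 and 233 CPM in InsDel5to10. The sum was highest in replicate 1 of InsDel7to10. Their median was 0.56, and -0.38 without replicate 1 of InsDel7to10. Endothelial genes overlapped likewise, with 163 and 61.8 CPM in InsDel7to10 and 103 and 241 CPM in InsDel5to10. Their median was -0.64, and 0.86 without replicate 2 of InsDel5to10. The 21 proliferation genes had a median of 0.0086, with 2 members non-overlapping each way (9.52%), against 14.9% of all genes tested as higher and 17% as lower.

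Beyond the 13 called genes, 177 of the 16852 autosomal genes outside the stretch were higher in InsDel7to10 and 143 lower by a looser rule. The rule asked for an unadjusted p under 0.01 in edgeR, no overlap, at least 1 CPM on average and no predicted model. Among this many genes, some pass an unadjusted limit without a true difference. The 10 with the largest fold change each way are given as values and not as calls. Those higher were Nrtn, Pax1, Nkx3-2, Eva1b, Rxfp3, Scn3a, Pcdhb5, Uncx, Gxylt2 and Bmyc, and in 5 of them replicate 1 of InsDel7to10 was over 3 times replicate 2. Nrtn, a ligand of the GDNF family, was the extreme, with 38.2 and 0.477 CPM in InsDel7to10 and 0.450 and 0.300 CPM in InsDel5to10. Scn3a, a voltage-gated sodium channel subunit, had 7.30 and 15.7 CPM in InsDel7to10 and 1.5 and 2.27 CPM in InsDel5to10. Pcdhb5, a clustered protocadherin, had 1.92 and 2.24 CPM in InsDel7to10 and 0.250 and 0.429 CPM in InsDel5to10 (adjusted p = 0.0554). For Nrtn the 2 InsDel7to10 libraries differed far more from each other than replicate 2 did from InsDel5to10.

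The 10 lower ones included Timp4, Samd3, Esrp1, Ap1m2, Grhl2, Cobl, Cpm, Trh and Cldn4, and in all 10 replicate 2 of InsDel5to10 was above replicate 1. Ap1m2, an adaptor subunit of epithelial sorting, and Cldn4, a tight junction protein, are textbook epithelial genes. The rule took them from the same libraries that gave the lists their values, and Cldn4 is also in the endoderm list. They are therefore no separate support for the epithelial difference. Timp4, an inhibitor of matrix metalloproteinases, had 0.165 and 0.0477 CPM in InsDel7to10 and 1.5 and 2.57 CPM in InsDel5to10 (adjusted p = 0.0636). Cpm, the surface carboxypeptidase M, had 5.82 and 1.76 CPM in InsDel7to10 and 17.4 and 40.3 CPM in InsDel5to10.

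The same genes were then compared between 144h and 120h in the 10 ISML_second libraries of 5 other lines. These libraries also entered the fit that shared the spread behind the 13 calls, and their 120h ones are among the 14 other libraries at 120h. There 9.25% of 15011 genes were higher and 5.94% lower at 144h at an adjusted p under 0.05 in edgeR. Of the 8 genes higher in InsDel7to10, 4 were lower at 144h past that threshold. Fmod was lower by a log2 fold change of -1.54 ± 0.21 (SE; adjusted p = 0.00207), Scx by -1.16 ± 0.25 (adjusted p = 0.0165), Islr by -0.70 ± 0.11 (adjusted p = 0.00386) and H1f0 by -0.21 ± 0.06 (adjusted p = 0.0466). None of the 8 was higher at 144h past the threshold. Of the 5 lower in InsDel7to10, Nt5e was lower at 144h by -1.03 ± 0.20 (adjusted p = 0.0102), and Hoxb13 did not pass the test (-0.11 ± 0.31, adjusted p = 0.841). Most members of the somite and presomitic lists were lower at 144h, with 14 of 20 members lower and 2 higher at 144h in the somite list (median -0.92) and 14 of 20 lower and 1 higher in the presomitic list (median -1.32). Pax1 and Mesp2, both higher in InsDel7to10 by value, parted here: Pax1 was higher at 144h by 1.11 (adjusted p = 0.00144) and Mesp2 lower by -2.86 (adjusted p = 0.000851). The endoderm list had 10 of 24 members higher and 3 lower at 144h.

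**Figure D4:**
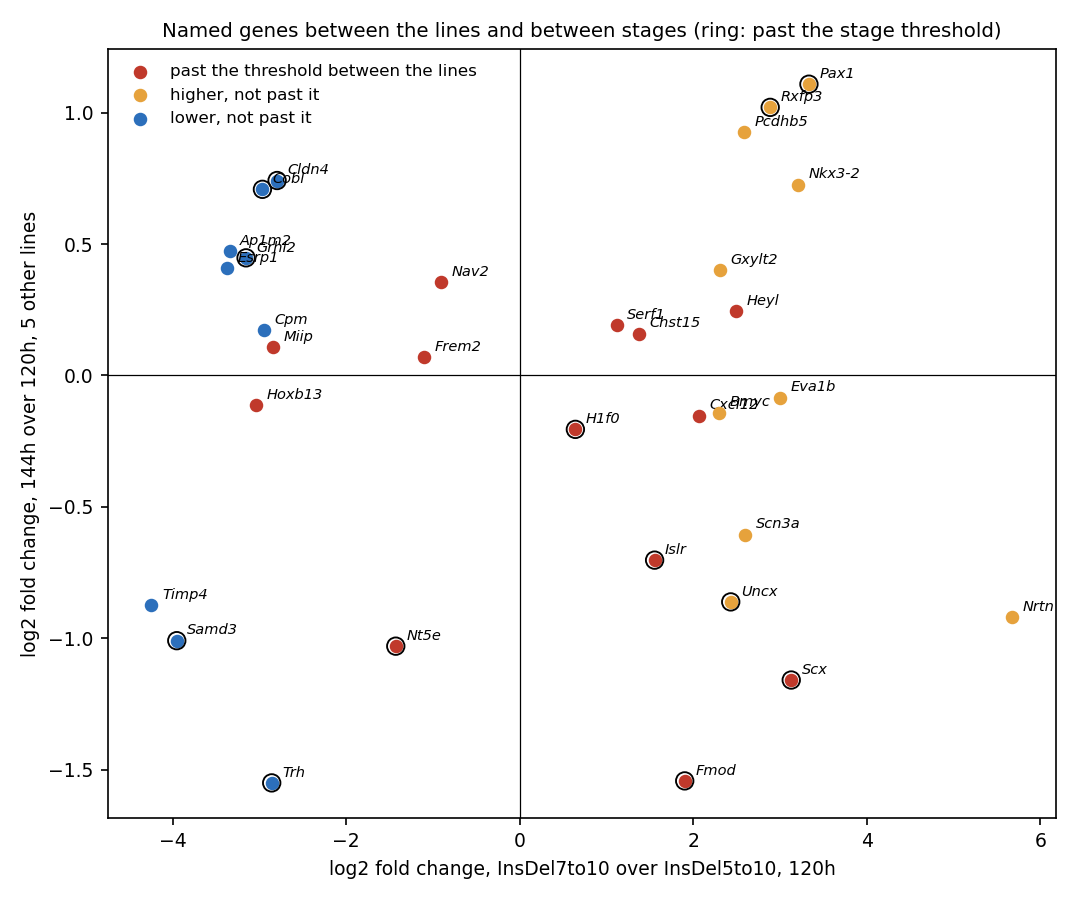
Log2 fold change of InsDel7to10 over InsDel5to10 at 120h (horizontal) against that of 144h over 120h in 5 other lines (vertical) for the genes named by the call or by size, coloured by whether they passed the threshold between the lines, with a ring where they passed it between stages. Fmod, Scx, Islr, H1f0 and Uncx lie at the lower right with rings, while Pax1 and Rxfp3 lie at the upper right.

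The called genes could also be followed from 96h, in single ISML_third libraries of InvClone1, the first clone of Ins(CBS5-10):Inv(CBS5-10), with no replicate at each time. All of these libraries are among the 6 of InvClone1 that stood apart in earlier results. Whether their course holds for other lines was not tested. Fmod was at 0 counts at 96h, which allows up to 0.122 CPM, and had 31.9 CPM at 120h, 9.63 at 144h and 0.428 at 168h. Cxcl12 had 14.1 CPM at 96h, 521 at 120h, 340 at 144h and 181 at 168h, and Islr 0.325, 34.5, 19.7 and 13.8 CPM at the same times. Of the 8 genes higher in InsDel7to10, these 3 were highest at 120h in that series, Scx and Serf1 at 144h, and Heyl, Chst15 and H1f0 at 168h. Of the 5 genes lower in InsDel7to10, Nt5e and Frem2 were highest at 96h, and Hoxb13 (at only 0.642 CPM), Nav2 and Miip at 168h. The values were 32.8 CPM for Nt5e at 96h and 9.74 at 120h, 196 CPM for Frem2 at 96h and 63.2 at 120h, and 23.9 CPM for Nav2 at 96h and 45.2 at 168h. Heyl was lowest at 96h and highest at 168h, with 6.58 CPM at 96h, 35.0 at 120h, 27.1 at 144h and 46.4 at 168h.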

How the data were processed

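The series holds 26 RNA-seq libraries of mouse gastruloids, from 8 lines and in 15 groups of line and hours. The deposited table of counts holds whole-number reads per gene for 55141 genes, not normalized. Tools named in the submitters' processing notes are Cufflinks 2.2.1, STAR 2.7.10a and cutadapt 1.18, with the build mm10, and the deposited FPKM table from Cufflinks gave the gene positions and an alternative test. The counter's strand setting and the annotation are unstated in these sources, so overlapping or antisense genes cannot be told apart. The 4 compared libraries share the ISML kit and library label, per the labels' protocols. Of the columns in each table, 4 matched no sample and were not used.

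The test was edgeR's robust quasi-likelihood test (edgeR 4.0.16, R 4.3.3; TMM normalization, minimum count 10, Benjamini-Hochberg threshold 0.05). 1 fit of all 26 libraries held terms for group and library label (17769 genes, 8 residual degrees of freedom), and groups of 1 library were assumed to vary like the replicated ones. The stage test used line and stage in the 10 ISML_second libraries (15011 genes, 4 residual degrees of freedom). CPM are counts scaled by the TMM library size. The fit was tested on simulated data with known changes before use. It recovered 55% of 100 genes changed by 1 on the log2 scale and 96% of 100 changed by 2, with 7 false calls. The simulated noise was drawn from the spread of the same fit, and genes of low level were not changed. That test therefore cannot speak to such genes or to replicates that differ more widely than the shared spread. Alternatives used DESeq2 1.42.0, limma 3.58.1, other filters, other sets of libraries and log2(FPKM + 1) or log2(FPKM + 0.1).

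Genes were named by rule: the HoxB genes, all called autosomal genes outside the chromosome 3 stretch, the 10 largest uncalled changes each way (unadjusted p under 0.01, mean of at least 1 CPM, no overlap, no predicted models), and up to 4 members of each list with the smallest unadjusted p under 0.05. Other genes named with values, such as receptors, paralogs and markers that overlapped, were chosen after their values were seen. The genes, the 32 lists and the tests were chosen with earlier results of these data known. A list is described by its counts and its median beside those of all genes, with no set test. 1 gene that the rule takes is not reported here. In no compared line did the replicates agree within sampling noise, and each library was counted as 1 sample. Promoter sequences are from RefSeq (GRCm38.p6).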

Additional observations from a re-analysis of the deposited data

How the results depend on the processing

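The count of autosomal genes past the threshold (13, of 45 over all genes) changed with the setting. It was 13 of 45 with DESeq2's size factors in edgeR, 9 of 37 in limma-voom, 19 of 62 with a minimum count of 50, and 12 of 46 and 9 of 37 on FPKM with pseudocounts of 1 and 0.1. It was 198 of 290 in DESeq2, 859 of 957 without a filter, 20 of 69 in the 18 libraries at 120h, 3 of 26 without 6 InvClone1 libraries that stood apart in earlier results and without a library term, 1 of 7 without the library term and 1 of 4 in the 4 compared libraries alone. In the 7 ISML_third libraries at 120h it was 0 of 3 (904 at an unadjusted p under 0.05). With the replicate number as a block in the 4 libraries alone it was 0 of 3 (464 at an unadjusted p under 0.05), but the numbers do not pair the samples, since the deviations of same-numbered libraries correlated at -0.173 over genes. A crossed replicate block, chosen after seeing the data, gave 1 of 4. Leaving out 1 of the 4 libraries gave 0 to 863 autosomal genes and 3 to 939 genes in all. The cause of these changes was not tested. The stage test called 2280 genes, 2544 in DESeq2, 2534 without a filter and 4831 without the 2 InvClone1 libraries. No value reversed a call, but the settings compare the same libraries, which did not overlap between the lines for the 13 genes. With 2 libraries a line and 8 residual degrees of freedom, a gene that was not called is not shown to be alike in the lines. Under 1 CPM values rest on few reads.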

Other observations

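Among axon guidance genes, none of which was called in edgeR, the values of several are given here. Ntn1, the guidance ligand netrin 1 (chromosome 11), had 518 and 486 CPM in InsDel7to10 and 268 and 332 CPM in InsDel5to10 (log2 fold change 0.74 ± 0.16, SE, adjusted p = 0.0784, edgeR), and both InsDel7to10 libraries were above the other 14 libraries at 120h (278 to 468 CPM). Sema3e, a repulsive semaphorin, had 16.2 and 14.8 CPM in InsDel7to10 and 50.4 and 28.7 CPM in InsDel5to10 (log2 fold change -1.35 ± 0.33, adjusted p = 0.138). Efnb2, an ephrin of somite boundaries and vessels, had 253 and 318 CPM in InsDel7to10 and 201 and 200 CPM in InsDel5to10. Of the 29 tested members 9 were higher and 5 lower in InsDel7to10 without overlap, against 14.9% and 17% of all genes tested, with a median log2 fold change of 0.14. In edgeR 7 had an unadjusted p under 0.05. DESeq2 called 1 each way, against 175 higher and 115 lower of all 17769 genes tested.

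Among 18 imprinted growth genes, 6 were higher and 3 lower in InsDel7to10 without overlap, against 14.9% and 17% of all genes tested. For both lists the lower share (17.2% and 16.7%) was close to that of all genes. None was called in edgeR, where 6 had an unadjusted p under 0.05. DESeq2 called 2 of the imprinted genes higher, against 175 of all 17769 genes tested. Mest had 3395 and 4614 CPM in InsDel7to10 and 2313.5 and 2150.2 CPM in InsDel5to10 (log2 fold change 0.84 ± 0.23, adjusted p = 0.187), where InsDel5to10 was under the other 14 libraries at 120h. Nnat had 1096 and 962 CPM in InsDel7to10 and 626 and 486 CPM in InsDel5to10 (adjusted p = 0.165). Among 21 genes of hypoxia and glycolysis, Slc2a3, a glucose transporter, had 308 and 330 CPM in InsDel7to10 and 684 and 978 CPM in InsDel5to10 (log2 fold change -1.38 ± 0.42, adjusted p = 0.272). Of 28 tested BMP and transforming growth factor genes, 2 were higher (7.14%) and 6 lower (21.4%) in InsDel7to10 without overlap, against 14.9% and 17% of all genes tested. None was called in edgeR, and the median log2 fold change was 0.11. Among the lower ones, Bmp7 had 16.7 and 16.9 CPM in InsDel7to10 and 24.0 and 23.5 CPM in InsDel5to10. The 2 higher ones were the ligands Tgfb2 and Tgfb3. Tgfb2 had 57.1 and 87.4 CPM in InsDel7to10 and 43.2 and 37.0 CPM in InsDel5to10 (adjusted p = 0.276). Tgfb3 had 17.6 and 28.5 CPM in InsDel7to10 and 9.16 and 10.2 CPM in InsDel5to10 (adjusted p = 0.154).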
